A study of Mus musculus with 28 samples.

Results

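The 10 genes described here encode aldo-keto and carbonyl reductases of the mouse: Akr1b7, Akr1b3, Akr1b8, Akr1b10, Akr1c6, Akr1c14, Akr1c19, Cbr1, Cbr3 and Cbr4. They were found by matching the RefSeq accession of each array probe to these gene names, which gave 13 probes for 10 of the 37208 genes and transcripts on the array. Akr1b3, Akr1b10 and Cbr4 had 2 probes each and the other 7 genes had 1. Liver RNA of 28 male mice was hybridised to Agilent mouse arrays in 1 colour, with 1 array per animal, in 3 feeding experiments with phenobarbital (PB), a barbiturate that induces drug-metabolising enzymes. In the first, outbred CD-1 mice had 7 days of diet with 0 or 1500 ppm PB, 4 animals each. The second gave 0 or 1000 ppm over 7 days to hCAR/hPXR mice, in which the human nuclear receptors CAR and PXR stand in place of the mouse ones, with 7 animals at each dose. The third gave 0 or 500 ppm to C3H/HeNCrlCrlj mice, here C3H, 3 animals at each dose, during 27 weeks that followed 1 intraperitoneal injection of the liver carcinogen diethylnitrosamine at 90 mg/kg. Both C3H groups received the carcinogen, and the labels state no ages and do not say if C3H tissue came from tumours or from the liver around them. The experiments differ in strain and dose, and the C3H experiment also in duration and carcinogen, so what a difference between them goes with cannot be told apart.

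Aldo-keto reductases and carbonyl reductases use NADPH or NADH to turn reactive aldehydes and ketones, from lipids, sugars, steroids and drugs, into alcohols. The Akr1b enzymes act mainly on aldehydes, many Akr1c enzymes are hydroxysteroid dehydrogenases, and the Cbr enzymes belong to the unrelated short-chain dehydrogenase family. Several genes of these families are known targets of the oxidative stress factor NRF2 or of CAR and PXR, the receptors through which PB acts.

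The genes lie partly in clusters. The promoter windows of Akr1b8, Akr1b10 and Akr1b7 all lie on chromosome 6, those of Akr1c14, Akr1c19 and Akr1c6 on chromosome 13, those of Cbr1 and Cbr3 on chromosome 16 and that of Cbr4 on chromosome 8 (RefSeq, GRCm38.p6, all on the plus strand). Of the 10 genes 9 had a promoter window in the RefSeq table. The 250 bases before the transcript start are given for a pair from the Akr1b cluster and a pair from the Cbr cluster, because within each pair the response to PB differed in size. Capitals would mark a match to either motif searched, and these 4 stretches hold none.
Akr1b7, chr6:34412112-34412361: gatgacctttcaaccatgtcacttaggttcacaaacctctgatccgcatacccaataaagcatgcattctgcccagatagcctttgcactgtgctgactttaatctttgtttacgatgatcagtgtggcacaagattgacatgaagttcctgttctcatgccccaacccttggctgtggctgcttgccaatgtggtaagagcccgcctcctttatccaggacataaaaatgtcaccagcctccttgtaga
Akr1b8, chr6:34353896-34354145: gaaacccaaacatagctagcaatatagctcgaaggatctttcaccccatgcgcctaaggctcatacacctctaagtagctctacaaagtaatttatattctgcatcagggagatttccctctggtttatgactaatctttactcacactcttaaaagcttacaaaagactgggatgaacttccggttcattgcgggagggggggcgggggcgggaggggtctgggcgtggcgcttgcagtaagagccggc
Cbr3, chr16:93682969-93683218: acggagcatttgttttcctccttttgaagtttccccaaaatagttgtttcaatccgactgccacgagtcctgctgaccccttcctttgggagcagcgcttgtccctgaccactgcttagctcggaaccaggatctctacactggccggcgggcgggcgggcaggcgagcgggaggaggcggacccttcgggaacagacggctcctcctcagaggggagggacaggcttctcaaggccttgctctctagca
Cbr1, chr16:93607587-93607836: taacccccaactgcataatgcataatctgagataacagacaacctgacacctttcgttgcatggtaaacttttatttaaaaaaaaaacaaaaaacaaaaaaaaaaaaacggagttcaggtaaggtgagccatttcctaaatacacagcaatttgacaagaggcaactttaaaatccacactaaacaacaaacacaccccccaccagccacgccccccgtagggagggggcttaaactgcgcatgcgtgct
Both strands of each window, from 250 bases before to 50 bases after the start, were searched for the core of the antioxidant response element to which NRF2 binds, TGACNNNGC, and for DR4, the direct repeat that CAR and PXR bind with RXR. The first motif was present in 1 of the 9 windows, that of Akr1c19, on the strand opposite to the gene at bases 8 to 16 after the start, where the plus strand reads GCTTAGTCA. It was present in 12.4% of all 32851 windows of this length. The second was present in 0 of the 9 and in 0.125% of all windows. After global alignment the 250-base stretches shared between 40.1% and 52.0% of their bases over 36 pairs of genes.

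Levels are given as log2 of the processed signal minus the 75th percentile of the same array, so 0 is the 75th percentile of brightness on that array, and levels of different probes were not set against each other. The scanner software marks each spot that is well above background. The share of probes with that mark was 46.1% to 70.5% per array in CD-1, 46.5% to 58.6% in hCAR/hPXR and 41.3% to 46.0% in C3H mice. The CD-1 arrays were dimmer at the top (99th percentile of processed signal 3932 to 6339, against 28948 to 45700 and 21118 to 30286) and their replicate spots varied more (median coefficient of variation 11% to 21.2%, against 4.73% to 11.6% and 5.12% to 6.60%). All CD-1 controls were on 1 slide and all PB-fed CD-1 animals on another, so slide and treatment cannot be told apart there. In hCAR/hPXR mice 1 slide held the 7 controls and PB animal 1, and the other held PB animals 2 to 7. The 6 C3H arrays shared 1 slide. As a check of the PB labels, Cyp2b10, the classical CAR target, was 101-fold, 22.4-fold and 53.3-fold higher with PB in the CD-1, hCAR/hPXR and C3H experiments (limma, adjusted p = 1.62e-05, 2.46e-09 and 3.35e-04). Cyp2c55, another target, was at least 29.6-fold, 9.84-fold and 21.8-fold higher (adjusted p = 1.62e-05, 4.18e-08 and 3.35e-04). The mouse PXR gene Nr1i2 was well above background on 1 of 7 hCAR/hPXR control arrays and on every control array of the other strains. The mouse CAR gene Nr1i3 stood at -1.02 ± 0.10 (SD, n = 7) in hCAR/hPXR controls against 1.48 ± 0.18 (n = 4) in CD-1 and 3.23 ± 0.18 (n = 3) in C3H controls. Its probe was still well above background on 7 of 7 control and 7 of 7 PB arrays of hCAR/hPXR mice.

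PB raised Akr1b7 in all 3 strains, and Cbr3 in hCAR/hPXR and C3H mice, by more than any other of the 10 genes. In CD-1 mice Akr1b7 was the only 1 of 9 tested genes to pass the test, which is limma with Benjamini-Hochberg adjustment over all tested genes at 0.05, and Cbr3 was too dim to be tested. Akr1b7 entered the CD-1 test only through the PB group, since no CD-1 control was well above background. With no filter on dim probes its CD-1 adjusted p was 8.50e-04. In C3H mice too it entered only through the PB group, since only 1 of 3 controls was well above background. The test called 7.99% of all tested genes in CD-1 mice, 1.85% as higher with PB. Among hCAR/hPXR mice 8 of 10 were higher, all but Akr1c6 and Akr1c14, where the test called 58.1% of all genes and 35.0% as higher. In C3H mice 7 of 10 were higher, all but Akr1b8, Akr1c6 and Cbr4, where the test called 14.7% of all genes and 7.38% as higher. None was called lower in any strain, where 6.14%, 23.2% and 7.30% of all tested genes were. The median PB minus control difference over the tested genes of the group was 0.08, 0.75 and 0.77 on the log2 scale in the CD-1, hCAR/hPXR and C3H experiments, and over all tested genes it was -0.04, 0.13 and -0.05. Because the median of all genes in hCAR/hPXR mice lay above 0.1, differences there are also to be read relative to it, and relative to it the 8 called genes lay between 0.29 and 4.49. The number called and at least 2-fold higher was 1, 4 and 4, against 1.78%, 2.22% and 4.88% of all tested genes. Between hCAR/hPXR and C3H mice 6 called genes were shared (Akr1b7, Akr1b3, Akr1b10, Akr1c19, Cbr1 and Cbr3), Akr1b8 and Cbr4 were called in hCAR/hPXR mice alone, Akr1c14 in C3H mice alone and Akr1c6 in none of the 3 strains. In C3H mice only Akr1b7, Akr1c14 and Cbr3 were called whichever animal was left out: 3 genes were called without control animal 1, 2 or 3 or PB animal 2, 4 without PB animal 3, and 8 without PB animal 1.

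**Figure D1:**
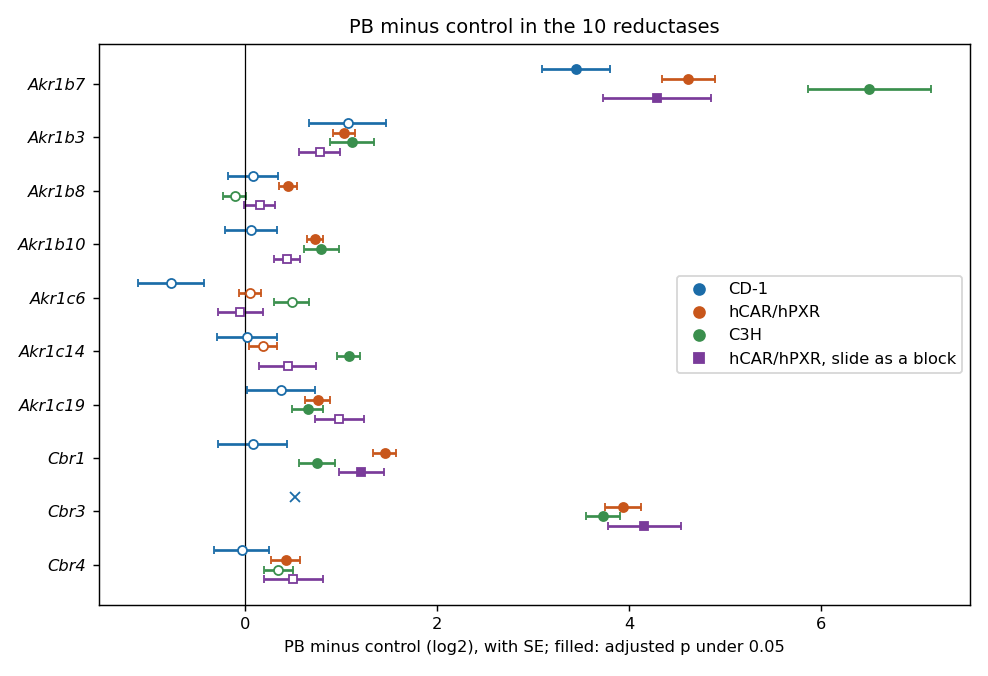
PB minus control on the log2 scale (x axis) for the 10 reductases (rows), with bars of 1 standard error. Circles are the 3 strains, purple squares the hCAR/hPXR value with slide as a block, filled symbols have an adjusted p under 0.05, and the cross is Cbr3 in CD-1 mice, which was not tested. Akr1b7 lies between 3.45 and 6.50 in the 3 strains and Cbr3 at 3.94 and 3.73 in hCAR/hPXR and C3H mice, while every other circle lies between -0.77 and 1.46.

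Akr1b7, an aldose reductase-like enzyme that was first described in the vas deferens and adrenal and that removes aldehydes from steroid and lipid breakdown, was near or below background in untreated CD-1 and C3H liver. The 4 CD-1 controls stood at -2.97, -3.21, -4.22 and -3.29, none well above background, and the 4 PB-fed animals at -0.01, -0.70, 0.55 and 0.26, all well above it. In C3H mice the controls stood at -3.26, -3.25 and -1.78, with only the last well above background, and the PB-fed animals at 3.19, 3.00 and 5.01. The hCAR/hPXR controls ranged from -1.69 to 0.06 with a median of -1.29, all well above background, and the PB-fed animals from 2.38 to 3.97 with a median of 3.72. In each strain all PB-fed animals lay above all controls, which held for 6.62%, 12.3% and 17.3% of all tested genes in the CD-1, hCAR/hPXR and C3H experiments, while 12.0%, 8.17% and 24.3% had all PB-fed animals below all controls. On the percentile scale the rise was at least 6.78-fold in CD-1 mice, a lower bound because no control was well above background (log2 difference of the measured values 3.45 ± 0.35, standard error; limma, adjusted p = 1.22e-04). It was 24.5-fold in hCAR/hPXR mice (4.62 ± 0.28, adjusted p = 5.53e-08) and 90.5-fold in C3H mice (6.50 ± 0.64, adjusted p = 0.00349), the latter against controls of which 1 of 3 was well above background. The size depended on the background correction: with normexp and quantile normalization the log2 difference was 1.36, 2.92 and 3.34 in CD-1, hCAR/hPXR and C3H, with adjusted p = 0.0176, 1.07e-07 and 0.00555, and the CD-1 value is then below the bound given above. The Akr1b7 call held in all 3 strains under each alternative setting that tested the gene and whichever animal was left out.

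**Figure D2:**
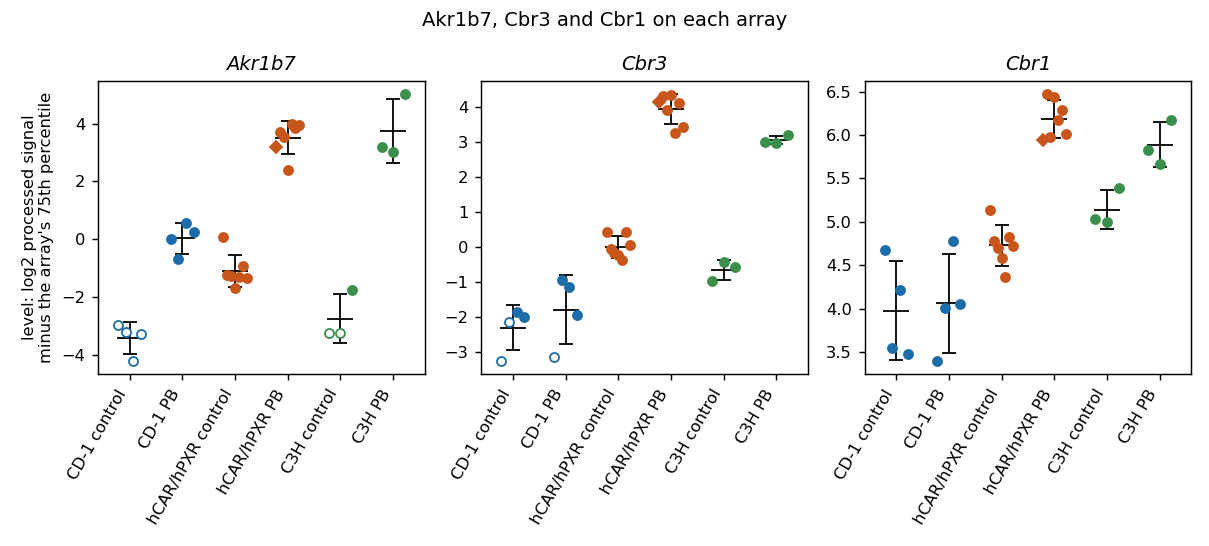
Level of Akr1b7, Cbr3 and Cbr1 (y axis, log2 processed signal minus the array's 75th percentile) on each of the 28 arrays in the 6 groups, with group mean and SD as black bars. Open circles were not well above background, and the diamond is the PB-fed hCAR/hPXR animal that shared a slide with the controls. For Akr1b7 the highest control of each strain lies below the lowest PB-fed animal of that strain, and for Cbr1 the CD-1 groups overlap.

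Akr1b3 is the mouse aldose reductase, which converts glucose to sorbitol. Its brighter probe was higher with PB in hCAR/hPXR and C3H mice. The CD-1 controls stood at 0.39, 1.10, 0.21 and 1.27 and the PB-fed animals at 0.65, 2.43, 2.04 and 2.13, so PB animal 1 lay among the controls and the other 3 above them. The difference of 1.07 ± 0.40 did not pass the test in CD-1 mice (adjusted p = 0.111), and without PB animal 1 it was 1.46 and passed (adjusted p = 0.0286). The hCAR/hPXR controls ranged from 1.44 to 2.18 (median 2.11) and the PB-fed animals from 2.77 to 3.14 (median 3.03), without overlap. That rise was 1.03 ± 0.11 (2.04-fold, adjusted p = 9.93e-06). In C3H mice the controls stood at 2.39, 2.44 and 2.50 and the PB-fed animals at 3.15, 3.49 and 4.03, a rise of 1.12 ± 0.23 (2.17-fold, adjusted p = 0.0284). The second, dimmer Akr1b3 probe rose by 0.71 in hCAR/hPXR mice (adjusted p = 4.76e-06 over all probes), but was at -0.02 in CD-1 mice, and its C3H difference of 1.0 missed the threshold (adjusted p = 0.0530). The probes disagreed in CD-1 mice.

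Akr1b10 and Akr1b8, close relatives that reduce lipid and retinoid aldehydes, changed less. Akr1b10 in CD-1 mice stood at -1.01, -1.04, -0.71 and -0.68 in controls and at -0.87, -1.24, -0.66 and -0.44 with PB, which overlap (0.06 ± 0.27, adjusted p = 0.904). It rose 1.66-fold in hCAR/hPXR mice (controls 0.24 to 0.50, median 0.32; PB 0.78 to 1.26, median 1.12; difference 0.73 ± 0.08, adjusted p = 1.24e-05). In C3H mice it rose 1.73-fold, from -0.13, -0.08 and -0.01 to 0.38, 0.77 and 1.02 (0.79 ± 0.18, adjusted p = 0.0370). Its second probe gave 0.71 and 0.74 in these strains, past the threshold in hCAR/hPXR mice alone (adjusted p = 3.20e-05 and 0.0560), and -0.61 in CD-1 mice. Akr1b8 is printed in 10 spots per array, at least 7 of which were kept on every array. It was 1.37-fold higher with PB in hCAR/hPXR mice (controls 1.36 to 1.73, median 1.44; PB 1.62 to 2.11, median 1.98; difference 0.45 ± 0.09, adjusted p = 8.42e-04), with 6 of 7 PB-fed animals above every control. In CD-1 mice controls at 0.12, -0.29, -0.47 and -0.13 overlapped PB-fed animals at -0.45, 0.04, -0.04 and close to 0 (0.08 ± 0.26, adjusted p = 0.857). It did not pass in C3H mice either, where controls at 1.70, 1.88 and 1.63 overlapped PB-fed animals at 1.61, 1.62 and 1.66 (-0.11 ± 0.12, adjusted p = 0.563). The probe sequences were not used here, so cross-hybridisation among these related genes was not tested.

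Akr1c6, the liver 17-beta-hydroxysteroid dehydrogenase of this family, was not called in any strain. In CD-1 mice it stood at 8.07, 6.87, 7.69 and 7.41 in controls and 6.22, 6.63, 7.47 and 6.64 with PB (-0.77 ± 0.34, adjusted p = 0.170). The hCAR/hPXR groups covered 8.63 to 9.49 and 8.98 to 9.40 (0.06 ± 0.12, adjusted p = 0.689). In C3H mice controls at 10.28, 10.09 and 10.30 lay below PB-fed animals at 10.35, 10.84 and 10.95, but the difference of 0.49 ± 0.18 did not pass (adjusted p = 0.117). It passed under quantile normalization (0.98, adjusted p = 0.0452) and with normexp (1.13, adjusted p = 0.0439).

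Akr1c14, a 3-alpha-hydroxysteroid dehydrogenase, rose 2.11-fold in C3H mice, from 4.29, 4.32 and 4.24 to 5.29, 5.30 and 5.51 (1.08 ± 0.12, adjusted p = 0.00515). The C3H controls lay within 0.1 of each other, and the call held whichever animal was left out. The hCAR/hPXR controls between 3.93 and 4.87 overlapped the PB-fed animals between 4.40 and 4.97 (0.19 ± 0.15, adjusted p = 0.281). In CD-1 mice controls at 2.51, 2.0, 2.51 and 1.88 overlapped PB-fed animals at 1.55, 2.50, 2.69 and 2.23 (0.02 ± 0.31, adjusted p = 0.974). Akr1c19, a related dehydrogenase, rose 1.69-fold in hCAR/hPXR mice (controls 4.46 to 5.12, median 4.93; PB 5.11 to 5.92, median 5.64; difference 0.76 ± 0.13, adjusted p = 2.40e-04), where 6 of 7 PB-fed animals lay above every control. It rose 1.57-fold in C3H mice, from 5.0, 5.05 and 5.0 to 5.91, 5.37 and 5.73 (0.65 ± 0.16, adjusted p = 0.0448), a value near the threshold. In CD-1 mice it stood at 2.81, 1.77, 2.31 and 2.0 in controls and at 1.72, 2.94, 3.12 and 2.63 with PB (0.38 ± 0.35, adjusted p = 0.505).

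**Figure D3:**
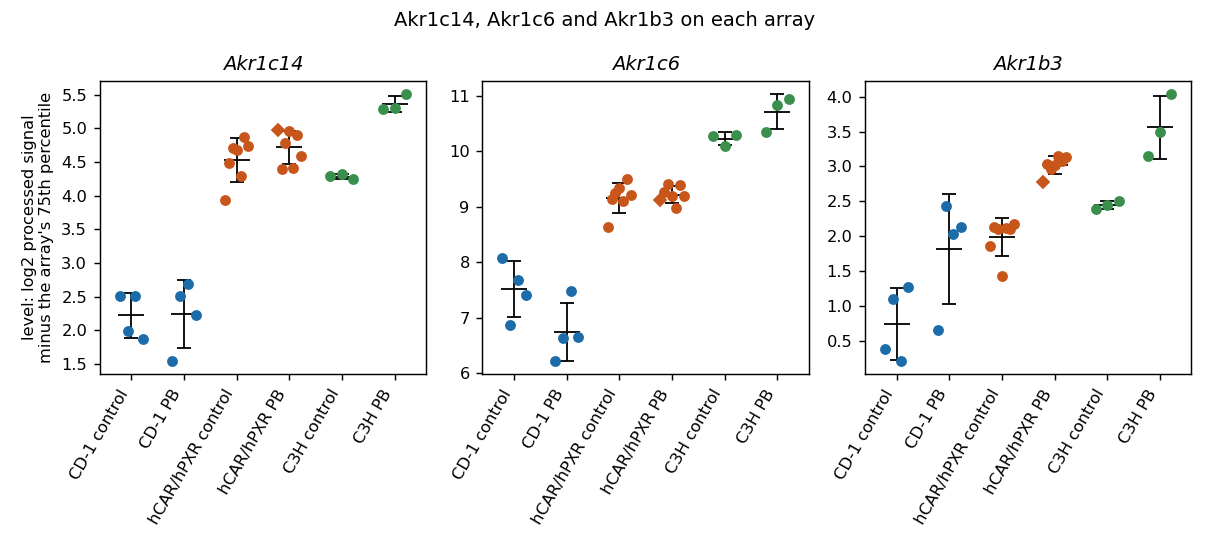
Level of Akr1c14, Akr1c6 and Akr1b3 (y axis, log2 processed signal minus the array's 75th percentile) on each of the 28 arrays in the 6 groups, with group mean and SD as black bars. The diamond is the PB-fed hCAR/hPXR animal that shared a slide with the controls. For Akr1c14 the C3H groups are apart, at 4.24 to 4.32 and 5.29 to 5.51, while the other strains' groups overlap.

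The neighbours Cbr3 and Cbr1 encode related cytosolic carbonyl reductases of quinones and other ketones. Cbr3 was 15.3-fold higher with PB in hCAR/hPXR mice and 13.2-fold higher in C3H mice. The hCAR/hPXR controls ranged from -0.38 to 0.42 (median -0.05) and the PB-fed animals from 3.28 to 4.37 (median 4.11). The C3H controls stood at -0.97, -0.43 and -0.58 and the PB-fed animals at 3.01, 2.99 and 3.19. Neither strain's groups overlapped, and the differences were 3.94 ± 0.19 (adjusted p = 4.33e-09) and 3.73 ± 0.17 (adjusted p = 3.35e-04). In CD-1 mice Cbr3 was dim in both groups, at -3.26, -2.14, -1.86 and -1.99 in controls and -3.14, -0.95, -1.14 and -1.94 with PB. It was well above background on 2 of 4 control and 3 of 4 PB arrays there, so it was not tested within that strain, and the groups overlapped.

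Cbr1 rose 2.74-fold in hCAR/hPXR mice (controls 4.36 to 5.14, median 4.72; PB 5.94 to 6.47, median 6.17; difference 1.46 ± 0.12, adjusted p = 1.29e-06). In C3H mice it rose 1.68-fold, from 5.03, 5.0 and 5.39 to 5.83, 5.66 and 6.18 (0.75 ± 0.19, adjusted p = 0.0448). In CD-1 mice controls at 4.67, 3.55, 4.21 and 3.48 overlapped PB-fed animals at 3.40, 4.00, 4.78 and 4.05 (0.08 ± 0.36, adjusted p = 0.902), although with normexp correction the difference was 0.63 and passed. Cbr4, which takes part in mitochondrial fatty acid synthesis, moved least of the Cbr genes. It was 1.34-fold higher in hCAR/hPXR mice (0.43 ± 0.15, adjusted p = 0.0256), where controls covered 2.27 to 3.47 and PB-fed animals 3.35 to 3.62. That call was lost under quantile normalization, with normexp, without the filter on dim probes, with the mean of both probes, with slide as a block and on the first slide alone. The C3H controls at 4.02, 3.90 and 4.12 lay below the PB-fed animals at 4.16, 4.34 and 4.59, but the difference of 0.35 ± 0.15 did not pass (adjusted p = 0.154). The CD-1 controls at 1.37, 0.67, 1.33 and 1.32 overlapped the PB-fed animals at 0.68, 1.32, 1.54 and 1.02 (-0.03 ± 0.29, adjusted p = 0.951). The second Cbr4 probe gave 0.92 in hCAR/hPXR mice (adjusted p = 0.0745 over all probes), with hCAR/hPXR control animal 6 at -2.54 and the other 6 controls between 0.30 and 0.75.

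Most of the hCAR/hPXR calls did not hold with slide as a block. With slide as a block, where the comparison with controls rests on PB animal 1 and standard errors are wider, Akr1b7 (4.29 ± 0.57, adjusted p = 0.00123), Cbr3 (4.16 ± 0.38, adjusted p = 5.92e-05) and Cbr1 (1.21 ± 0.23, adjusted p = 0.0159) still passed, 3 of the 8 called genes. The number called over all genes fell from 11643 to 440. Akr1b3 (0.78, adjusted p = 0.0815), Akr1c19 (0.98, adjusted p = 0.0667), Akr1b10 (0.44, adjusted p = 0.124), Cbr4 (0.51, adjusted p = 0.471) and Akr1b8 (0.15, adjusted p = 0.708) kept their direction and did not pass. The level of PB animal 1 on the controls' slide was 2.77 for Akr1b3 against controls of at most 2.18, and 0.78 for Akr1b10 against controls of at most 0.50. Its Akr1b8 level of 1.62 lay within the control range, below the 1.75 to 2.11 of the PB-fed animals on the other slide. On the first slide alone, with PB animal 1 as the only treated sample and its spread assumed to be that of the controls, 2 genes were called, Akr1b7 and Cbr3.

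The size of the PB effect was compared between strains in 1 limma fit of all 28 arrays. That fit takes 1 spread per gene for all strains, although replicate spots varied more on the CD-1 arrays. Some differences between hCAR/hPXR and CD-1 mice therefore have smaller standard errors than the CD-1 effect in its own fit. These are 0.30 against 0.34 for Akr1c6, 0.32 against 0.36 for Cbr1 and 0.20 against 0.27 for Akr1b10. The calls below assume an equal spread, which was not tested. The effect was larger in hCAR/hPXR than in CD-1 mice for 4 of 10 genes, in a comparison that called 28.6% of all genes, 19.5% as higher and 9.11% as lower. These were Cbr3 (3.42 ± 0.45, adjusted p = 1.37e-05), Cbr1 (1.37 ± 0.32, adjusted p = 0.00258), Akr1b10 (0.67 ± 0.20, adjusted p = 0.0159) and Akr1c6 (0.82 ± 0.30, adjusted p = 0.0385), the last with a CD-1 value of -0.77 that itself did not pass. It was larger in C3H than in CD-1 mice for 5 of 10, where the test called 15.1% of all genes, 9.63% as higher and 5.46% as lower. These were Cbr3 (3.21 ± 0.54, adjusted p = 2.63e-04), Akr1b7 (3.05 ± 0.67, adjusted p = 0.00330), Akr1c6 (1.25 ± 0.36, adjusted p = 0.0205), Akr1c14 (1.06 ± 0.34, adjusted p = 0.0379) and Akr1b10 (0.73 ± 0.25, adjusted p = 0.0470). Both comparisons use the same CD-1 arrays. In the second, 3 genes were called without CD-1 control 3, CD-1 PB animal 1 or any 1 C3H control, and 2 without C3H PB animal 2 or 3. The CD-1 values of Akr1b7 and Cbr3 rest on arrays at or near background, and the CD-1 rise of Akr1b7 is a lower bound, so these differences have no firm size. Akr1b7 entered the comparison of C3H with CD-1 mice only through the PB groups, and its difference was 0.47 under quantile normalization (adjusted p = 0.662). The Cbr3 differences passed under all 3 scalings. Between C3H and hCAR/hPXR mice only Akr1b7 differed (1.88 ± 0.60 larger in C3H, adjusted p = 0.0460), in a comparison that called 9.55% of all genes, 4.16% as higher and 5.39% as lower. The adjusted p was 0.376 under quantile normalization, and no gene was called without any 1 of hCAR/hPXR controls 2, 3, 5, 6 or 7, hCAR/hPXR PB animals 2, 3, 4 or 6, C3H controls 1 or 2, or C3H PB animal 3. Without hCAR/hPXR PB animal 1, 3 genes were called. For Akr1b3 the differences of the PB effect between strains lay between -0.04 and 0.08, with standard errors of 0.35 to 0.43.

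For the genes tested, untreated levels were lowest in CD-1 mice on the percentile scale. Akr1b7 was not tested between C3H and CD-1 controls, where it was well above background on 1 of 3 and 0 of 4 arrays. The part of the dimmer CD-1 arrays in these differences was not tested. All 10 genes were higher in hCAR/hPXR than in CD-1 controls and all 9 tested were higher in C3H than in CD-1 controls, in comparisons that called 88.2% (50.8% higher, 37.4% lower) and 88.9% (50.9% higher, 38.0% lower) of all genes. The median difference over all genes was 0.57 and 0.73 in these comparisons. The differences ran from 0.75 for Cbr1 to 2.62 for Akr1c19 in hCAR/hPXR mice and from 0.79 for Akr1b10 to 2.84 for Cbr4 in C3H mice. Cbr1 turned with the scaling: it was 0.75 and 1.16 higher on the percentile scale but lower under quantile normalization (-0.77 and -0.81) and with normexp (-0.67 and -0.66), each past the threshold. Akr1b3 was not called under either of those scalings, and Akr1c14 was not called between C3H and CD-1 controls there. Between C3H and hCAR/hPXR controls 4 genes differed, where the test called 48.4% of all genes, 29.8% as higher and 18.6% as lower in C3H. Akr1c6 (1.06 ± 0.23, adjusted p = 3.72e-04) and Cbr4 (0.90 ± 0.21, adjusted p = 8.35e-04) were higher in C3H, and Akr1b7 (-1.65 ± 0.42, adjusted p = 0.00214) and Akr1b10 (-0.41 ± 0.16, adjusted p = 0.0319) were lower. None of these 4 passed under quantile normalization or with normexp, and under quantile normalization Akr1c14 was called (-0.61, adjusted p = 0.0111). For Akr1b3, Akr1b8, Akr1c19, Cbr1 and Cbr3 the difference between these control groups did not pass on any of the 3 scalings.

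**Figure D4:**
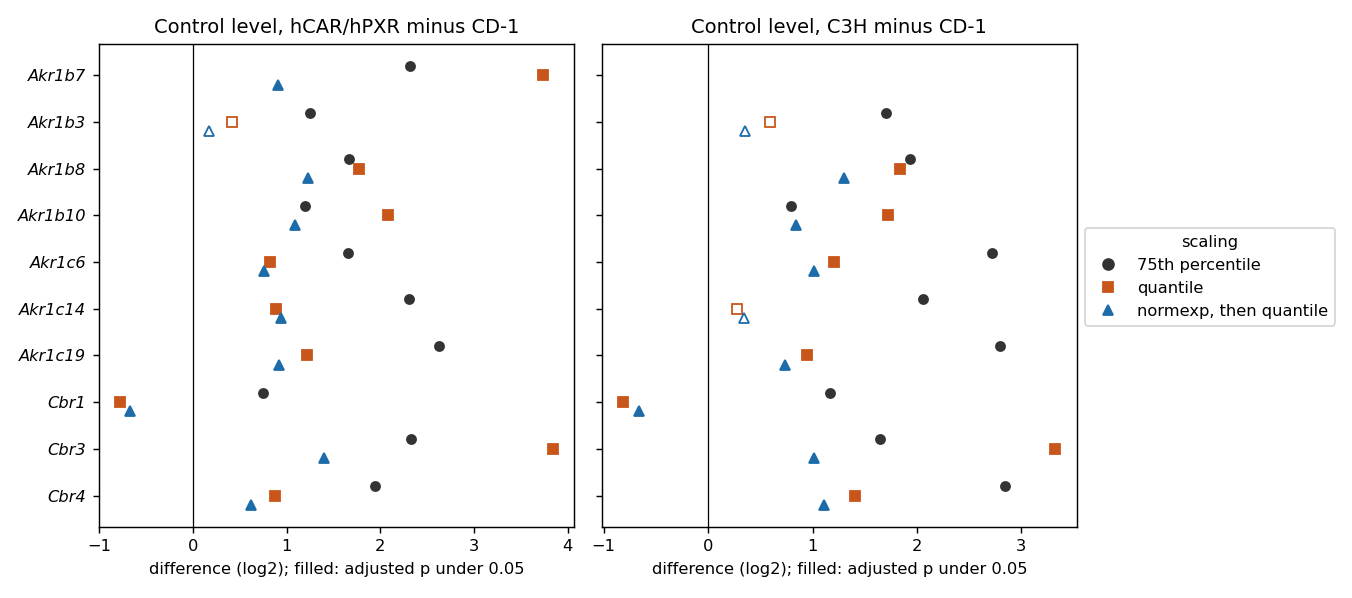
Difference in untreated level on the log2 scale (x axis) between hCAR/hPXR and CD-1 controls (left, n = 7 and 4) and between C3H and CD-1 controls (right, n = 3 and 4) for each gene (rows) under 3 scalings. Filled symbols have an adjusted p under 0.05, and Akr1b7 was not tested in the right panel. Cbr1 lies above 0 on the percentile scale (0.75 and 1.16) and below 0 under the other scalings.

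The other genes of these pathways were taken from lists. Over all tested genes 1.85%, 35.0% and 7.38% were called higher in the CD-1, hCAR/hPXR and C3H experiments, and 6.14%, 23.2% and 7.30% lower. The hCAR/hPXR calls of the lists were not checked with slide as a block. Of 10 other aldo-keto reductases 9 were on the array. In hCAR/hPXR mice 4 of 7 tested were higher and 1 was lower (median 0.35): Akr1d1, the bile acid 5-beta-reductase, by 0.77 (adjusted p = 9.56e-05), Akr1c13 by 0.39 (adjusted p = 0.00183), Akr7a5 by 0.36 (adjusted p = 0.00418) and 1 more, while Akr1c12 fell by 0.50 (adjusted p = 0.00249). In CD-1 mice 0 of 6 and in C3H mice 0 of 7 tested passed. Of 14 other carbonyl and quinone reductases 0 of 11, 9 of 13 and 4 of 14 tested were higher in the CD-1, hCAR/hPXR and C3H experiments and none was lower (medians -0.35, 0.51 and 0.19). The smallest adjusted p in hCAR/hPXR mice belonged to Rdh11 (0.97), the quinone reductase Nqo1 (2.29), Dhrs7 (0.66) and Ptgr1 (0.96). In C3H mice the 4 were Nqo1 (2.73, adjusted p = 0.00181), Dhrs7 (0.79), the biliverdin reductase Blvrb (1.90) and Ptgr1 (0.85). Of 22 NRF2 targets, a list that shares Nqo1 with the one before, 5 of 20 tested were higher in CD-1 mice and 17 of 21 in hCAR/hPXR mice. In C3H mice 12 of 21 were higher and 1, Osgin1, was lower (-1.27, adjusted p = 0.0110), and the medians over this list were 0.28, 0.95 and 1.07. Gclc and Gclm of this list passed in no strain. In CD-1 mice 15 of the 20 tested NRF2 targets did not pass, and Nqo1 was well above background on no array. Abcc4 was called there but entered the CD-1 test only through the PB group, since no CD-1 control was well above background. The glutathione transferases Gstm3 (4.05), Gsta1 (3.80), Gsta2 (2.77) and Gstm1 (2.18) had the smallest adjusted p there. In hCAR/hPXR mice these were the efflux pump Abcc4 (3.62), Srxn1 (1.35), Htatip2 (1.18) and Gstm3 (2.21), and in C3H mice Abcc4 (6.70), Gstm3 (2.23), Nqo1 (2.73) and Gstm1 (1.32). A list of 14 CAR and PXR responsive genes includes Cyp2b10 and Cyp2c55. Of these 14, 10, 13 and 12 were higher in the CD-1, hCAR/hPXR and C3H experiments and none was lower (medians 2.35, 1.25 and 1.57).

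**Figure D5:**
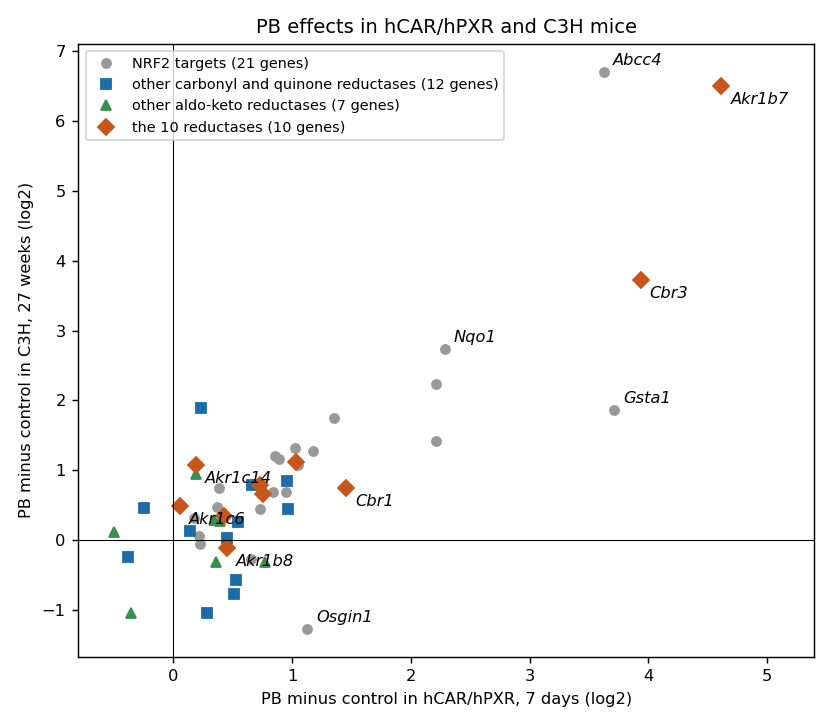
PB minus control in hCAR/hPXR mice (x axis, log2) against PB minus control in C3H mice (y axis, log2) for the 10 reductases (diamonds) and 3 lists of related genes, for the genes tested in both strains. Akr1b7 (4.62 and 6.50) and Cbr3 (3.94 and 3.73) lie far from the other reductases, and Osgin1 is called higher in hCAR/hPXR mice and lower in C3H mice (1.13 and -1.27).

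Over the 28 arrays, after each strain's mean was subtracted, the genes whose levels followed Akr1b7 most closely among 15743 were the P450 gene Cyp2b9 (r = 0.948), Abcc4 (0.939) and Gadd45b (0.936). For Cbr3 they were the cell cycle regulator E2f1 (0.938), Aunip (0.938) and Krt31 (0.931), and for Cbr1 they were Ybx3 (0.920), Arhgef7 (0.919) and Slc25a37 (0.917). For Akr1b3 they were Adssl1 (0.907), Kif20b (0.904) and Cyp2a4 (0.878). For Akr1b10 they were Msto1 (0.892), Nuf2 (0.883) and Htatip2 (0.877), and for Akr1b8 Vps37b (0.824) and Isg20 (0.815). Akr1c14 went with Mpp1 (0.862), Cyp1a2 (0.845) and Irs1 (0.844), Akr1c19 with Cdk18 (0.913), Glrx5 (0.905) and Ugt2b35 (0.885), and Cbr4 with Dcaf12 (0.888), Ciao2b (0.868) and Zswim7 (0.868). These correlations describe arrays that share the treatment and, in CD-1 and hCAR/hPXR mice, the slide.

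As a check of the tissue label, 9 of 9 hepatocyte markers on the array were well above background on every array. In whole liver RNA, fewer cells of a type and less RNA per cell cannot be told apart. The marker counts stand beside 1.85%, 35.0% and 7.38% of all tested genes called higher in the CD-1, hCAR/hPXR and C3H experiments, and 6.14%, 23.2% and 7.30% lower. Of these 9 markers 4 were lower with PB in C3H mice (Alb, Apoa1, Ttr and Fgb; summed level 9422 to 10352 in controls and 5841 to 7422 with PB, as linear values relative to the 75th percentile) and 2 in CD-1 mice (Alb and Apoa1; 4312 to 7083 and 3223 to 5043), while Fgb was higher in hCAR/hPXR mice. Kupffer cell and macrophage markers were higher with PB in hCAR/hPXR mice for 5 of 9 tested (125 to 168 and 134 to 273). None of 8 tested was called in CD-1 mice (32.2 to 35.4 and 23.2 to 38.2) and none of 9 in C3H mice (98.1 to 128 and 84.2 to 100). The hCAR/hPXR calls of the marker lists were not checked with slide as a block. Of 8 bile duct markers on the array, 3 of 6 tested were higher and 1 lower in hCAR/hPXR mice (2.89 to 6.01 and 21.9 to 54.1), and 2 of 5 tested were higher and 1 lower in C3H mice (3.78 to 4.80 and 14 to 26.1). In CD-1 mice 1 of 7 tested was higher (5.27 to 6.57 and 6.93 to 9.80). Prom1 was higher in all 3 strains. The rise was at least 16.4-fold in CD-1 mice, where no control was well above background. It was 6.68 and 4.61 log2 units in hCAR/hPXR and C3H mice. Without Prom1 the sums were 5.10 to 6.53 in controls and 5.32 to 7.28 with PB in CD-1 mice, 2.57 to 5.24 and 3.09 to 5.47 in hCAR/hPXR mice, and 3.32 to 3.86 and 3.14 to 5.67 in C3H mice, so the ranges overlapped. Single markers were called beneath these sums. Krt19 was higher with PB in hCAR/hPXR and C3H mice (0.91 and 2.90). Sox9 was higher in hCAR/hPXR mice (0.48) and at least 4.43-fold lower in C3H mice, where no PB array was well above background. Cftr was lower in hCAR/hPXR mice (-1.17). The part of these cell types in the reductase values was not tested. Akr1b7 is also known from the adrenal cortex, of which 6 markers were on the array. Cyp11a1 was well above background on none of the arrays, and Cyp11b1 on 1 CD-1 control and 1 hCAR/hPXR control array. Cyp21a1 and Nr5a1 were well above background on every array, Star on all CD-1 and hCAR/hPXR control arrays and Cyp11b2 on 3 of 4 control and 4 of 4 PB arrays of CD-1 mice. None of the 6 was called higher with PB, and 1 of 4 tested was lower in CD-1 mice (Star, -2.98), 2 of 3 in hCAR/hPXR mice (Star and Nr5a1) and 2 of 2 in C3H mice (Cyp21a1 and Nr5a1). Their summed level was 4.49 to 9.48 in controls and 2.63 to 3.87 with PB in CD-1 mice, 6.59 to 12.4 and 7.73 to 11.1 in hCAR/hPXR mice, and 3.15 to 3.49 and 1.53 to 2.25 in C3H mice.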

How the data were processed

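Agilent mouse arrays of 28 livers, 1 per animal, were analysed. Per the file headers, the deposited spot values are intensities from Agilent Feature Extraction 10.7.3.1 (background-corrected processed signal, with median spot and background signals), which had not been normalized between arrays. The authors' deposited value table is on the log2 scale and matched log2 processed signal minus each array's 75th percentile, up to an offset of -0.0233 to 0.0102 per array, over 55681 probes. Here the signals were put on that scale after removal of outlier-flagged and control spots, and spots of a probe were averaged. No spot of these genes was saturated. The probe with the highest mean over the 28 arrays stood for a gene, and a gene was tested where it was well above background on every array of at least 1 group.

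Each strain was fitted with limma 3.58.1 (lmFit and eBayes, R 4.3.3). Differences between strains came from 1 fit of 28 arrays, which takes 1 spread per gene for all strains. P-values were adjusted by Benjamini-Hochberg over all genes tested, with a threshold of 0.05. A probe that was well above background on none of a group's arrays has only a bound there: the fold is then the bright group's mean over the dim group's mean of, per array, the higher of the lowest signal well above background and the probe's own. The procedure was tested on simulated data. The number of arrays limits the precision.

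The members and gene lists were chosen with earlier results of these data known. The text names the 10 members, Cyp2b10, Cyp2c55, Nr1i3 and Nr1i2, up to 4 called genes per list and comparison with the smallest adjusted p, and, for each member called in a strain, the 3 genes with the highest correlation. 1 such result is not reported here. Osgin1, Gclc, Gclm, the mention of Abcc4 in CD-1 mice and the marker genes named were chosen after their values were seen. Alternatives covered the normalization, the deposited table, normexp (offset 50) on median signals with quantile normalization, the filter, the probe, the variance model, the samples fitted, the slide, the replicate number and each animal. A random slide effect for CD-1 mice could not be fitted, because each slide held 1 whole group. The files name no genome build, and probe sequences and proteins were not used here.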

Additional observations from a re-analysis of the deposited data

Results flagged for a closer look

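In 5 of 40 groups of 4 to 7 animals a single animal stood apart from the rest by Dixon's criterion, where chance gives about 1 in 20. Akr1b7 stood at 0.0617 in hCAR/hPXR control animal 1, above the other 6 controls. Akr1b8 stood at -0.447 in CD-1 PB animal 1, below the other 3, and at 1.73 in hCAR/hPXR control animal 2, above the other 6. Cbr4 stood at 0.672 in CD-1 control animal 2, below the other 3, and at 3.35 in hCAR/hPXR PB animal 2, below the other 6.

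The effect of PB differed between strains by the interaction test in 10 cases, with 10 genes tested in each comparison. It was larger in hCAR/hPXR than in CD-1 mice by 0.673 for Akr1b10, 0.824 for Akr1c6, 1.37 for Cbr1 and 3.42 for Cbr3, where 28.6% of all genes were called. It was larger in C3H than in CD-1 mice by 0.733 for Akr1b10, 3.05 for Akr1b7, 1.06 for Akr1c14, 1.25 for Akr1c6 and 3.21 for Cbr3, where 15.1% of all genes were called. It was larger in C3H than in hCAR/hPXR mice by 1.88 for Akr1b7, where 9.55% of all genes were called. That last call was lost under quantile normalization and with any 1 of several animals left out. The CD-1 effect of Akr1b7 is a lower bound, since none of the CD-1 controls was well above background, and Cbr3 was too dim to test within CD-1 mice, so their differences from CD-1 mice have no firm size. Under quantile normalization the Akr1b7 difference between C3H and CD-1 mice was 0.47 (limma, adjusted p = 0.662). All are on the log2 scale, and the comparisons with CD-1 mice share the CD-1 arrays.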

How the results depend on the processing

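Of 74 counts of called genes recomputed under another setting, 56 stayed within 1.5 times the reported count and 18 did not. In CD-1 mice the count of 1 was 2 with normexp, 0 where a gene had to be well above background on every array, and 3 in 1 fit of all arrays. In hCAR/hPXR mice the count of 8 was 3 with slide as a block and 2 on the first slide alone. In C3H mice the count of 7 was 3 without the filter. For the PB effect in hCAR/hPXR minus CD-1 mice the count of 4 was 2 under quantile normalization. In C3H minus CD-1 mice the count of 5 was 2 under quantile normalization and 3 with normexp, without the filter, with the stricter filter and with the replicate block. In C3H minus hCAR/hPXR mice the count of 1 was 2 under quantile normalization and with normexp, and 0 with no filter and with the stricter filter. For control levels in C3H minus hCAR/hPXR mice the count of 4 was 1 under quantile normalization and with normexp. The cause was not tested, except that the stricter filter tests fewer genes and the first slide holds fewer arrays.

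Leaving out 1 animal at a time gave 1 to 2 called genes in CD-1, 8 to 8 in hCAR/hPXR and 3 to 8 in C3H mice, 3 to 4, 2 to 5 and 0 to 3 for the PB effect in hCAR/hPXR minus CD-1, C3H minus CD-1 and C3H minus hCAR/hPXR mice, and 10 to 10, 9 to 9 and 3 to 4 for control levels in the same order.

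Of 279 values of single genes, 240 kept direction and call, 25 lost the call, 5 gained it and 9 changed sign. None of the 9 had been called: in CD-1 mice Cbr4 was 0.155 under quantile normalization, Akr1b8 -0.171 with normexp and Akr1b10 -0.275 with the mean of its probes. In hCAR/hPXR mice Akr1c14 was -0.0178 under quantile normalization and -0.0887 with normexp, and Akr1c6 was -0.143, -0.144, and -0.0453 both with slide as a block and on the first slide. With an animal left out, signs also turned in CD-1 mice for Akr1b10 (-0.0597 to 0.207), Akr1b8 (-0.00931 to 0.196), Akr1c14 (-0.129 to 0.253), Cbr1 (-0.158 to 0.313) and Cbr4 (-0.202 to 0.118), and in hCAR/hPXR mice for Akr1c6 (-0.0321 to 0.112).

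The replicate block gave 1, 8 and 5 called genes in the 3 strains. Same-numbered animals did not deviate together throughout (correlations of -0.448 to 0.191, -0.139 to 0.278 and 0.0891 to 0.203 for CD-1, hCAR/hPXR and C3H), so the numbers were not taken as pairs.

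Over all genes, CD-1 calls went from 1900 to 3799 with normexp, 6172 in 1 fit and 1164 with the replicate block, hCAR/hPXR calls from 11643 to 440 with slide as a block and 251 on the first slide, and C3H calls from 2682 to 612 without the filter and 1543 with the replicate block. The share of calls that were higher moved from 23.2% to 33.8% and 39.4% in CD-1 mice under quantile normalization and normexp, and for the PB effect from 68.2% to 57.3% and 54.6% in hCAR/hPXR minus CD-1 and from 43.5% to 61.8% and 55.9% in C3H minus hCAR/hPXR mice. Dim CD-1 controls limit Akr1b7 and Cbr3 there.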

Other observations

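Single animals recurred at the ends of their groups. Of the 4 PB-fed CD-1 animals, animal 1 had the lowest level for 8 of the 10 genes. Of the 3 PB-fed C3H animals, animal 3 had the highest level for 9 of the 10, and of the 4 CD-1 controls animal 1 had the highest for 7 of the 10. The levels of the genes on 1 array share its RNA and its scaling.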
